A study of Mus musculus with 9 samples.

Results

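By day 6 after a fracture, the injured periosteum of the mouse has begun to build a soft callus, a cartilage template that bone later replaces. The step described here is the difference between labelled cells sorted from periosteum and soft callus at day 6 and labelled cells sorted from fractured periosteum at day 2. It rests on 6 of the 9 bead arrays of the study, 3 pools at day 6 against 3 pools at day 2, and on 10073 genes. All samples came from αSMACreERT2/Ai9 mice of B6;129S6 background, controls included. In these mice the smooth muscle actin promoter drives a tamoxifen-activated Cre that switches on a tomato reporter, and 2 tamoxifen doses of 75 µg/g were given before the bone was broken. The reporter is permanent, so a sorted cell is one that expressed the Cre around the time of tamoxifen or descends from one, whatever it expressed on the day of sorting.

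The day 6 group held tomato-positive cells of fractured tibia in pools of 4, 8 and 4 animals, aged 4, 3 to 5 and 4 to 5.5 months. The day 2 group held tomato-positive cells of fractured tibial periosteum in pools of 8, 8 and 7 animals, aged 2 to 5, 4.5 to 5.5 and 4 to 5 months. Pools 1 and 2 were male and pool 3 was female at both days. Another 3 pools, from unfractured periosteum, entered the fit to share its estimate of the spread. They held 9, 8 and 9 animals aged 4, 4 to 5 and 4.5 to 5.5 months, and were male, female and male in that order. They also entered the normalisation, the detection filter and the choice of probe, and no difference below is taken against them. Their levels are given for leukocyte and replication genes. Pooling hides the variation between animals, and p-values measure the spread between these pools. In the pools compared, 52.1 to 54.5% of probes were detected at day 6 and 50.4 to 55.2% at day 2.

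Cartilage is made by chondrocytes, which secrete fibrils of collagen II, IX and XI filled with aggrecan, a proteoglycan that binds hyaluronan and holds water. Sox9, with Sox5 and Sox6, turns these genes on. As the cells mature they enlarge, make collagen X and signal through Indian hedgehog and the parathyroid hormone receptor, which in the growth plate set the pace of maturation. Progenitors of the periosteum divide before they take this path, and dividing cells need the replication helicase, nucleotide synthesis and the mitotic spindle.

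Acta2, the actin that names the reporter, was bright in every pool: its log2 intensity was 14.09, 15.27 and 15.22 in the day 6 pools, against 14.11, 15.75 and 15.93 in the day 2 pools. Its ranges overlapped between the days. Pool 1 stood apart at both days. Its mean log2 intensity over macrophage and general leukocyte genes was 9.95 at day 6, against 7.33 and 7.69 in the other day 6 pools, and 11.71 at day 2, against 7.56 and 8.06 in the other day 2 pools. For that reason each count below was repeated without pool 1 of either day and without unfractured pool 3, which had 10.16. This left pools 2 and 3 of each day. The repeated counts are given for some lists, and where they are not given they were not always the same. The labels do not say that same-numbered pools are paired. Same-numbered pools of the fractured groups deviated from their group means together across genes (r = 0.63, 0.52 and 0.51). The number did not single out each pair: day 6 pool 2 correlated with day 2 pool 3 at r = 0.57, and day 6 pool 3 with day 2 pool 2 at 0.33, while pool 1 of either day correlated below 0 with the other pools of the other day. Deviations from a group mean cancel within a day, so these values cannot separate pairing by number from pool 1 standing apart at both days. With these limits, a fit with the pool number as a block, called the paired fit below, was run on the 6 arrays.

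At an adjusted p under 0.05 (limma, Benjamini-Hochberg over all genes), 132 genes were higher at day 6 than at day 2, which is 1.31% of those tested, and 11 were lower, which is 0.109%. All 143 differed by at least 2-fold, and their day 6 and day 2 values did not overlap. The paired fit called 438 genes (4.35%), 307 of them higher (3.05%) and 131 lower (1.3%). The same 6 arrays without the block gave 216 calls, so part of the gain came with the choice of arrays. The block over all 9 arrays gave 89. There the number matches neither sex nor leukocyte level: unfractured pool 2 was female, and pool 3 male and leukocyte-rich. Without the leukocyte-rich arrays 351 were called (3.48%), 246 higher (2.44%) and 105 lower (1.04%). The fit of all arrays, the paired fit and the fit without the leukocyte-rich arrays shared 117 calls. Their shares of all genes are the background for the counts of each gene list below. A single call on a list describes that gene and not the list. Leaving out 1 array at a time gave 47 calls without day 6 pool 2, 49 without day 6 pool 3, 52 without day 2 pool 3, 77 without day 2 pool 2 and 95 without day 2 pool 1, and between 109 and 189 without any other array. The number of falls was 1 or 2 without day 2 pool 2 or 3 or any 1 day 6 pool, and 27 without unfractured pool 3. Regardless of the test, 1189 genes (11.8%) were higher and 1334 genes (13.2%) were lower in all 3 day 6 pools than in any day 2 pool. The median difference of all genes was -0.04 on the log2 scale.

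**Figure D1:**
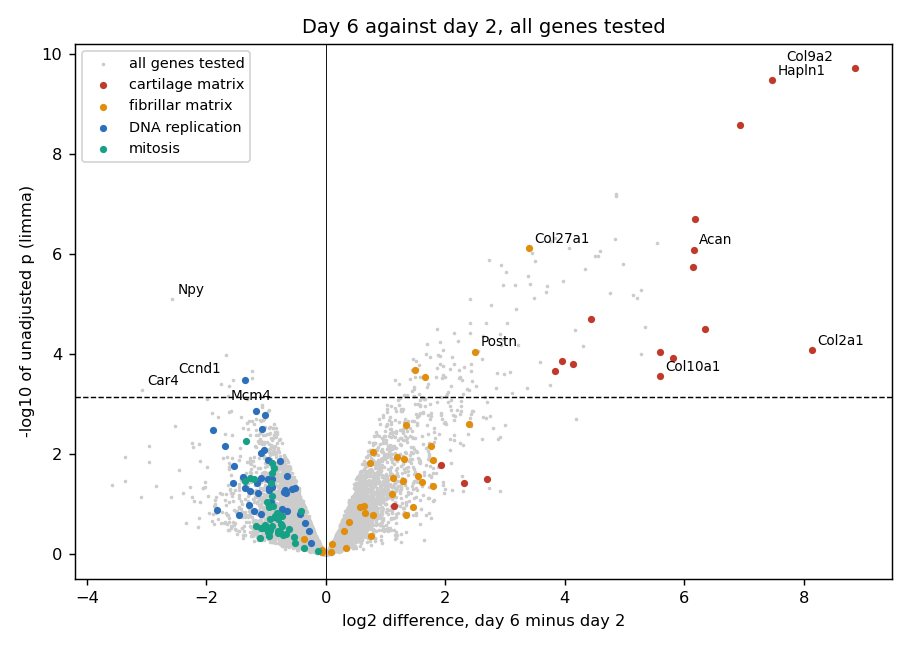
The log2 difference between day 6 and day 2 (horizontal axis, day 6 minus day 2) against the unadjusted p of each gene on a -log10 scale (vertical axis), for all 10073 genes; coloured points are members of 4 gene lists, and the dashed line marks the largest p among the 143 calls. Cartilage genes spread to the right up to 8.87, while replication and mitosis genes lie left of 0 and, other than Mcm4, under the line.

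Cartilage matrix genes made up 11 of the 15 largest rises. Of 29 genes on the cartilage list, 19 were measured, 15 passed the test, all upward, and none fell. The median difference of the 19 was 5.60 on the log2 scale, and all 19 were higher at day 6. Both depend on the detection filter, since 5 of the 19 were at background at day 2 and entered through other arrays. With no such filter 25 were measured, 15 rose, 2 were lower at day 6 and the median was 4.14. Without the leukocyte-rich arrays 16 rose and the median was 6.49, and the paired fit again called 15. The count was 9 with the pool number as a block over all 9 arrays, 8 without day 6 pool 2 or day 6 pool 3, 9 without day 2 pool 3 and 11 without day 2 pool 1 or day 2 pool 2, with all 19 higher at day 6 in each of these fits. In bulk pools, more chondrocytes and more RNA per chondrocyte cannot be told apart, here and for every gene group below.

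Col9a2, a chain of the collagen IX that coats cartilage fibrils, had the largest fitted difference over all arrays. Its log2 intensity was 13.48, 14.21 and 14.32 in the day 6 pools, against 5.07, 5.36 and 4.99 in the day 2 pools, where it was not well above background. The gap is therefore given as a bound, at least 335-fold (adjusted p = 1.67e-06, limma). All 3 day 2 pools were at background and all 3 day 6 pools far above it. Without the leukocyte-rich arrays the difference of Col2a1 was larger, 9.57 against 9.09 for Col9a2 on the log2 scale.

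Col2a1, the main fibrillar collagen of cartilage, had a log2 intensity of 16.02, 15.72 and 16.0003 in the day 6 pools, against 10.75, 6.82 and 5.77 in the day 2 pools. It rose by 8.13 ± 1.19 (SE; adjusted p = 0.0136, limma). The day 6 pools were alike and the day 2 pools were not: day 2 pool 1 stood well above the other day 2 pools.

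Acan, aggrecan itself, had 14.84, 14.92 and 15.09 in the day 6 pools, against 9.59, 9.28 and 7.52 in the day 2 pools (log2 intensity), a rise of 6.16 ± 0.50 (SE; adjusted p = 0.000614, limma). It was detected in all 3 day 2 pools. Hapln1, the link protein that ties aggrecan to hyaluronan, had 13.03, 13.21 and 13.23 in the day 6 pools, against 5.86, 5.95 and 5.26 in the day 2 pools. Its rise of 7.47 ± 0.25 had the same adjusted p as that of Col9a2.

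Ucma and Matn1 were at background at day 2. Ucma, a secreted protein of unmineralised cartilage, was at least 70.3-fold higher, and Matn1, a matrilin that links matrix fibrils, at least 58.3-fold higher. For Matn1, day 6 pool 1 was the lowest of the day 6 pools, at 9.19 against 12.53 and 12.73. Scrg1, Mia (at least 54.6-fold), Panx3, a channel protein of maturing chondrocytes and osteoblasts, and Matn4 rose by 5.60 to 6.19 on the log2 scale. Clec3a, Col11a1, Comp and Col9a1, named here to complete the list, also passed, with rises between 3.83 and 4.45.

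Collagen X, the product of hypertrophic chondrocytes, was less settled. Col10a1 had 10.33, 12.14 and 12.36 in the day 6 pools, against 8.46, 4.79 and 4.77 in the day 2 pools (log2 intensity). The difference was 5.60 ± 0.96 (SE; adjusted p = 0.0273, limma), but the paired fit gave an adjusted p of 0.0683. Day 2 pool 1 had a Col10a1 signal the other day 2 pools lacked, and pool 1 was the lowest at day 6.

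The other 4 measured genes of the list did not pass. Fmod, a collagen-binding proteoglycan, differed by 2.32 and passed in the paired fit (limma, adjusted p = 0.0271), and Chad, Epyc and Cytl1 differed by 2.70, 1.92 and 1.14. Leaving out 1 array ended 7 of the 15 calls, those of Col2a1 (adjusted p up to 0.0724; day 2 pool 2 or 3, day 6 pool 2 or 3), Panx3 (0.0979; day 2 pool 3, day 6 pool 2 or 3), Matn4 (0.0813; day 2 pool 1 or 3, day 6 pool 2 or 3), Comp (0.109; the pools given for Matn4), Col11a1 (0.109; any day 2 pool, day 6 pool 2 or 3), Col9a1 (0.125; day 2 pool 1 or 2, any day 6 pool) and Col10a1 (0.145; the pools given for Col2a1 and unfractured pool 2). Clec3a passed without any 1 array (limma, adjusted p up to 0.0354). The calls of Col9a2, Hapln1, Ucma, Matn1, Scrg1, Acan and Mia held in all 22 alternative fits.

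**Figure D2:**
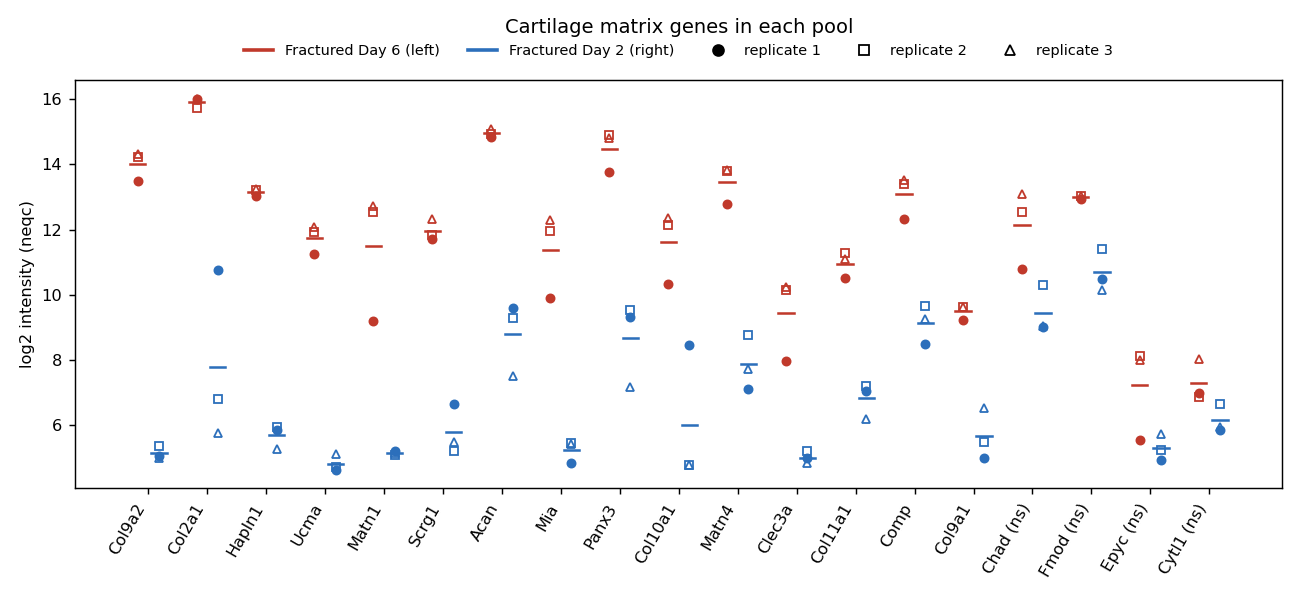
Log2 intensity (vertical axis) of the 19 measured cartilage genes in each pool, day 6 left and day 2 right for each gene, with the group mean as a bar and the replicate as the symbol; "ns" marks genes that did not pass the test. The day 6 and day 2 pools of Col9a2, Hapln1 and Ucma are separated by more than 6 log2 units, and Col2a1 and Col10a1 show day 2 pool 1 above the other day 2 pools.

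Regulators of the chondrocyte were higher by smaller amounts. Of 22 listed transcription factors and signals 12 were measured, of which 5 rose and none fell, and 7 rose without the leukocyte-rich arrays. All 12 were higher at day 6, with a median of 2.49 (2.24 with the genes at background at day 2 set to their bounds). This depends on the detection filter: with no such filter 19 were measured, 4 rose, 3 were lower and the median was 1.42. Fgfr3, a receptor that restrains chondrocyte division in the growth plate, was at least 7.99-fold higher (adjusted p = 0.000732, limma), and Gdf5, a growth factor of joints and early cartilage, at least 4.55-fold higher (adjusted p = 0.000715). Wwp2, a ubiquitin ligase whose gene hosts the cartilage microRNA miR-140, rose by 2.68 ± 0.33. Pth1r, the receptor for parathyroid hormone and its related peptide, had 11.68, 11.83 and 11.80 in the day 6 pools, against 9.66, 8.94 and 8.12 in the day 2 pools (log2 intensity), a rise of 2.87 ± 0.48.

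Ihh, the hedgehog signal of maturing chondrocytes, had 7.18, 9.35 and 9.96 in the day 6 pools, against 5.49, 5.88 and 5.01 in the day 2 pools. It passed (3.37 ± 0.62, SE; adjusted p = 0.0373, limma), but not in the paired fit (adjusted p = 0.0548). As with collagen X, the lowest of the day 6 values was that of pool 1. Leaving out any 1 array other than day 6 pool 1 ended the call of Ihh (adjusted p up to 0.188), and that of Pth1r ended without day 2 pool 2 or 3 or any 1 day 6 pool (up to 0.127). The calls of Fgfr3, Gdf5 and Wwp2 held in all 22 alternative fits.

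The Sox factors did not pass in the fit of all arrays. Sox9 had 10.58, 11.12 and 11.13 in the day 6 pools, against 7.27, 8.84 and 8.67 in the day 2 pools (log2 intensity). The difference of 2.68 ± 0.61 did not pass (adjusted p = 0.0879, limma) but did in the paired fit (adjusted p = 0.0162). Sox5 (2.29), Sox8 (1.72), Trps1 (1.92) and Creb3l2 (1.42), the last a regulator of secretory capacity in chondrocytes, likewise passed in the paired fit and not in that of all arrays. The paired fit called 9 of the 12, the 6 arrays without the block 5, and the block over all 9 arrays 4. Hhip, which binds hedgehog ligands, differed by 0.21 ± 0.25 (limma, adjusted p = 0.856).

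Genes that build and sulfate the sugar chains of proteoglycans moved less. Of 22 measured, 1 rose and none fell, with a median of 0.73. In the paired fit 7 rose, and 3 rose without the leukocyte-rich arrays. Slc26a2, the sulfate transporter of chondrocytes, was at background at day 2 and at least 3.89-fold higher at day 6 (adjusted p = 0.0136, limma). Papss2, which activates sulfate, had 10.62, 10.22 and 10.39 in the day 6 pools, against 7.76, 8.05 and 8.13 in the day 2 pools. Its difference of 2.43 passed in the paired fit (limma, adjusted p = 0.0132) and not in that of all arrays (0.107). The same held for Chsy1, Chst11, Bpnt2 and Slc35d1, with differences between 1.27 and 1.55. Has2, which makes hyaluronan, differed by -0.43 ± 0.70 and passed in neither. Without day 2 pool 2 or 3 or day 6 pool 2, Slc26a2 did not pass (adjusted p up to 0.0769).

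The wider connective tissue matrix rose in part. Of 33 measured fibrillar collagens and matrix glycoproteins, 4 rose and none fell, with a median of 1.12. The paired fit called 12, and 9 rose without the leukocyte-rich arrays. Col27a1, a fibrillar collagen of cartilage, had 10.96, 10.89 and 11.39 in the day 6 pools, against 7.45, 7.66 and 7.90 in the day 2 pools (log2 intensity), a rise of 3.41 ± 0.28 (adjusted p = 0.000614, limma). It passed in every alternative fit. Postn, the periosteal matrix protein periostin, was at least 3.69-fold higher on a dim probe, and Emilin1 and Fbn2, both proteins of elastic microfibrils, rose by 1.66 and 1.49.

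Bone and general collagens were already bright. Col1a1 had 15.99, 15.56 and 15.53 in the day 6 pools, against 15.56, 14.96 and 14.87 in the day 2 pools, and Col3a1 had 14.06, 14.996 and 14.65 against 12.67, 14.54 and 14.12. Neither passed (adjusted p = 0.577 and 0.657, limma), and both ranges overlapped. Mfap2, a microfibril protein, and Lum, the fibril-spacing proteoglycan lumican, passed in the paired fit and not in that of all arrays (2.39 and 1.35).

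Of 24 enzymes and chaperones that modify and crosslink collagen, only P3h2, a prolyl 3-hydroxylase, passed. It had 10.49, 10.37 and 10.21 in the day 6 pools, against 7.44, 8.24 and 7.54 in the day 2 pools, a rise of 2.62 ± 0.40 (adjusted p = 0.0167, limma). The paired fit added 4 more, 3 of them P3h1, P3h3 and P3h4 of the same family or its complex, between 1.44 and 1.55. P4ha1, Plod1 and Plod2, which hydroxylate proline and lysine, differed by 1.30, 1.05 and 1.81 and did not pass. Of 32 secretory pathway genes none passed, and the median was 0.21. Leaving out 1 array ended the calls of Postn (up to 0.0907; day 2 pool 2 or 3, day 6 pool 2 or 3), Fbn2 (0.150) and P3h2 (0.0956; both without day 2 pool 1 or 3 or any 1 day 6 pool) and Emilin1 (0.163; any 1 of the 6 pools).

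**Figure D3:**
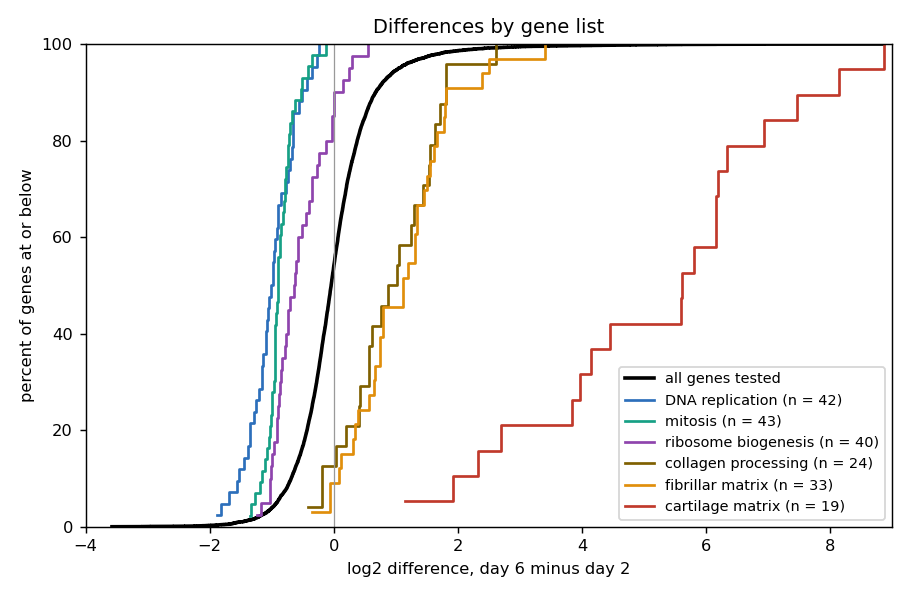
Percent of genes (vertical axis) at or below each log2 difference between day 6 and day 2 (horizontal axis, day 6 minus day 2), for all genes tested and for 6 lists with the number of genes measured. The replication, mitosis and ribosome biogenesis curves lie left of the curve of all genes over most of their range, the collagen and fibrillar matrix curves right of it, and the cartilage curve furthest right with its median at 5.60.

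Osteoblast and mineral genes leaned upward without passing in the fit of all arrays. None of 15 measured osteoblast genes passed, although all 15 were higher at day 6 (median 1.67). That rested partly on single pools: 3 were lower and the median was 1.06 without day 6 pool 1, 2 were lower and the median was 1.16 without day 2 pool 3, and 1 was lower without day 2 pool 1. The paired fit called 5, among them Omd, Tnfrsf11b (osteoprotegerin), Vdr and Kcnk1. Without the leukocyte-rich arrays 3 rose. Sp7, the osteoblast transcription factor osterix, had 11.84, 12.01 and 11.64 in the day 6 pools, against 10.79, 10.54 and 8.81 in the day 2 pools (log2 intensity). Its 1.78 ± 0.74 did not pass (adjusted p = 0.393, limma; 0.0675 in the paired fit). Smpd3, a sphingomyelinase needed for mineralisation, showed the largest difference of this list, 4.198 ± 0.97 (limma, adjusted p = 0.09; 0.0131 without the leukocyte-rich arrays).

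Bglap, osteocalcin of mature osteoblasts, followed the pool number more than the day. It had 15.72, 9.29 and 9.20 in the day 6 pools, against 14.66, 8.71 and 5.92 in the day 2 pools. Pool 1 was high at both days, as it was for leukocyte genes; the part of either in the other was not tested. Of 12 measured genes of mineralisation and hypertrophy none passed (median 0.53, and 0.24 without day 6 pool 1). Alpl, the phosphatase that frees phosphate for mineral, had 13.19, 12.68 and 12.58 in the day 6 pools, against 11.29, 10.99 and 9.38 in the day 2 pools, and passed in the paired fit alone (2.27; limma, adjusted p = 0.0374; 0.0742 in the fit of all arrays). Ibsp (2.74), Mmp13 (1.31) and Mgp (1.11) did not pass.

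Signals outside the cartilage lists rose singly. Frzb, a secreted Wnt inhibitor of cartilage, was the 1 of 30 measured Wnt pathway genes that passed. It had 9.77, 10.004 and 10.27 in the day 6 pools, against 5.64, 5.18 and 4.65 in the day 2 pools, where it was at background, and was at least 21.1-fold higher (adjusted p = 0.000138, limma). The paired fit added Rspo2, Rspo3, both amplifiers of Wnt signalling, and Sfrp1, another secreted inhibitor, at 1.43 to 1.66.

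Among 38 growth factors and receptors, 3 rose: Mdk, the heparin-binding factor midkine (3.69 ± 0.38), Fgfrl1, an FGF receptor without a kinase (3.42 ± 0.34), and Igf2, a fetal growth factor (2.52 ± 0.46). Fgfrl1 had 11.85, 11.84 and 11.996 in the day 6 pools, against 8.45, 8.56 and 8.40 in the day 2 pools (log2 intensity). The pools of each day lay close together and the days far apart. The call of Igf2 ended without any 1 day 2 pool, day 6 pool 2 or 3, or unfractured pool 2 (adjusted p up to 0.188, limma), while Frzb, Mdk and Fgfrl1 passed in all 22 alternative fits.

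None of 33 measured genes of the BMP, TGF-beta and activin pathways passed, and 3 did in the paired fit: Bmp8a, Ltbp3 and Chrd. The 33 measured Notch pathway genes held no call either (median -0.08), and Dlk1, a Notch-like protein of fetal tissues, rose in the paired fit. Notch1 differed by -0.01 ± 0.48, and Hes1, a Notch target, by -0.07 ± 0.50. Notch3, the receptor of mural cells, had 10.77, 10.46 and 10.56 in the day 6 pools, against 9.74, 12.62 and 11.86 in the day 2 pools, so that day 2 pool 1 was below and the other day 2 pools above all day 6 pools. Rbpj, the DNA-binding partner of Notch, was lower in all 3 day 6 pools (-1.17 ± 0.27) and did not pass (limma, adjusted p = 0.0902).

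A few hypoxia genes rose. Of 29 measured genes of glycolysis and hypoxia, 3 rose: Aldoc, a glycolytic aldolase, and the carbonic anhydrases Car9 and Car12, enzymes of the cell surface that handle acid. Car9, a textbook target of the hypoxia factor HIF, had 8.96, 8.74 and 8.88 in the day 6 pools, against 5.96, 5.20 and 5.05 in the day 2 pools (log2 intensity), a rise of 3.46 ± 0.29 (adjusted p = 0.000628, limma). Aldoc was at background at day 2 and at least 16.2-fold higher. Vegfa and Ldha, also HIF targets, differed by 0.94 ± 0.28 and -0.14 ± 0.28 and did not pass. None of 39 measured subunits of oxidative phosphorylation passed (median -0.24, range -0.63 to 0.25). Car12 did not pass without any 1 of the 6 pools (adjusted p up to 0.103) nor without the leukocyte-rich arrays (0.059).

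Replication genes shifted together and downward, by less. All 42 measured genes of DNA replication were lower at day 6, beside 54.0% of all genes, and in 38 of them every day 6 pool was below every day 2 pool, as in 13.2% of all genes. Their median difference was -0.99 on the log2 scale. One passed in the fit of all arrays, Mcm4, a subunit of the replication helicase, and 16 fell in the paired fit. The same 6 arrays without the block gave 11 falls, and the block over all 9 arrays gave 0. Without the detection filter 46 of 47 were lower at day 6. Over the 22 alternative fits the median lay between -1.15 and -0.74.

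Mcm4 had 11.68, 11.84 and 11.62 in the day 6 pools, against 12.999, 13.01 and 13.19 in the day 2 pools (log2 intensity), and fell by 1.35 ± 0.24 (SE; adjusted p = 0.0295, limma). Its pools were tight and the groups clearly apart. Rpa1, a subunit of the protein that coats single-stranded DNA, was among the 11 falls and on no list. It had 11.65, 11.68 and 11.60 in the day 6 pools, against 12.84, 12.91 and 12.86 in the day 2 pools, and fell by 1.23 ± 0.20 (limma, adjusted p = 0.0233). Ccnd1, the cyclin that opens the cell cycle in response to growth signals, had 10.98, 10.75 and 10.56 in the day 6 pools, against 12.02, 12.51 and 12.43 in the day 2 pools, and fell by 1.56 ± 0.27 (limma, adjusted p = 0.0295).

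In the paired fit, Rrm2 and Rrm1, the subunits of ribonucleotide reductase, fell by 1.88 and 1.16, Tk1, thymidine kinase, by 1.81, and Cdc6, which loads the helicase, by 1.69. Mcm5 had 10.89, 11.09 and 10.72 in the day 6 pools, against 12.65, 12.22 and 12.42 in the day 2 pools; its difference of -1.53 passed in the paired fit (limma, adjusted p = 0.0304) and not in that of all arrays (0.283). The calls of Mcm4 (adjusted p up to 0.180), Rpa1 (0.150) and Ccnd1 (0.178) ended without most single pools: any 1 of the 6 for Mcm4, which also ended without unfractured pool 2, and for Rpa1, and any but day 2 pool 1 for Ccnd1. Unfractured pools 1, 2 and 3 had a mean replication-list intensity of 8.13, 8.92 and 9.64. The day 6 range was 8.75 to 8.92 and the day 2 range 9.70 to 9.96. The highest unfractured value was that of the leukocyte-rich pool 3.

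Mitotic genes were lower as well, with fewer calls. All 43 measured genes of the spindle and of chromosome segregation were lower at day 6 (median -0.90), beside 54.0% of all genes. In 37 of them the days did not overlap, as in 13.2% of all genes. Without the detection filter 53 of 55 were lower. None passed, and 4 fell in the paired fit, which called 1.3% of all genes lower. On the 6 arrays without the block 1 fell, and 0 with the block over all 9 arrays. Foxm1, a transcription factor of the G2 and M phases, had 7.70, 7.93 and 8.00 in the day 6 pools, against 9.14, 9.21 and 9.27 in the day 2 pools. Its fall of 1.33 passed in the paired fit (adjusted p = 0.0274; 0.152 in the fit of all arrays, limma). The other 3 were Anln, Spag5 and Cenpn. Top2a, the topoisomerase that untangles chromosomes, had 10.19, 9.54 and 9.46 in the day 6 pools, against 11.53, 10.13 and 10.31 in the day 2 pools, and Cdk1, the mitotic kinase, had 10.58, 10.41 and 10.39 against 11.44, 10.32 and 10.69. Both overlapped between the days, neither passed, and both were detected in every day 6 pool.

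The promoters of 4 of these genes are shown for the sequence words that cell cycle factors are known to bind. Mcm6 and Cenpn were chosen after their values were seen. E2F factors bind TTTCGCGC or TTTGGCGC, NF-Y binds CCAAT, and the cell cycle homology region, read by the DREAM complex and B-Myb with FoxM1, is TTTGAA. Each word was searched on both strands in the 250 bases before the start of transcription (RefSeq, GRCm38.p6), and overlapping matches were counted apart. Capitals mark matches to any of them.
Mcm5, chr8:75109259-75109508, plus strand: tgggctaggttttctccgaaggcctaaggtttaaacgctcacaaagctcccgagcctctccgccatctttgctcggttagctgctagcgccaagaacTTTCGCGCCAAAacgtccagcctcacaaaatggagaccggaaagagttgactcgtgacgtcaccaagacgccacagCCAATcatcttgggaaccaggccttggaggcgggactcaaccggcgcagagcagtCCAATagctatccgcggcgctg
Mcm6, chr1:128359706-128359955, minus strand: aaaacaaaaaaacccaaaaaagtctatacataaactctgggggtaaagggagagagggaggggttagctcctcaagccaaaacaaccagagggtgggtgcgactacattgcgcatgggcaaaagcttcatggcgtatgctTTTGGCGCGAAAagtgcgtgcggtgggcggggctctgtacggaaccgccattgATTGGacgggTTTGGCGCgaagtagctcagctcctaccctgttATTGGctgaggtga
Cenpn, chr8:116921490-116921739, plus strand: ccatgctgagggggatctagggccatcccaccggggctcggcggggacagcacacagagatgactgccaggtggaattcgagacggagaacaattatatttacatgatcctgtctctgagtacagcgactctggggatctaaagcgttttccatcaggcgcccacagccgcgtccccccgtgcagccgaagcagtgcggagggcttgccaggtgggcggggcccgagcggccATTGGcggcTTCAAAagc
Top2a, chr11:99024190-99024439, minus strand: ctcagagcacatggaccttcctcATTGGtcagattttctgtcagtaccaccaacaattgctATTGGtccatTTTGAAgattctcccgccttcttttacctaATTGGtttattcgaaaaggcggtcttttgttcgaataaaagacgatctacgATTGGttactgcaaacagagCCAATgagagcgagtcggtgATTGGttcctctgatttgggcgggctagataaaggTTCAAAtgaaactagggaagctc

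Mcm5 held 2 E2F matches and Mcm6 3, each with 2 CCAAT matches. Top2a held 6 CCAAT and 2 TTTGAA matches, and Cenpn 1 of each. No other window of the mitotic list held as many CCAAT matches as Top2a, which is therefore not typical of that list. An E2F word was present in 7.32% of 41 promoter windows of the replication list, against 1.14% of the windows of all genes tested and 0.654% of 32851 windows in all. Those 3 replication windows belonged to Mcm5, Mcm6 and Uhrf1. The Mcm5 and Mcm6 promoters shown are therefore not typical of the replication list. CCAAT was present in 66.7% of 42 windows of the mitotic list, against 35.2% of tested genes and 33.8% of all windows, and TTTGAA in 35.7%, against 10.9% and 16%. Cartilage windows held CCAAT in 29.4% of 17 and no E2F word. A match is a description of the sequence and says nothing of binding in these cells.

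Genes of ribosome production leaned lower as well. Of 40 measured genes of ribosome biogenesis, 34 were lower at day 6 (median -0.63), beside 54.0% of all genes. None passed, and Heatr1, a ribosomal RNA processing factor, fell in the paired fit (-1.17). Ncl, nucleolin, had 9.91, 9.62 and 9.40 in the day 6 pools, against 10.70, 10.88 and 11.05 in the day 2 pools (log2 intensity). It did not pass (-1.23 ± 0.29; adjusted p = 0.094, limma; 0.0529 in the paired fit). Gpatch4, a nucleolar protein on no list, and Mrps22, a mitochondrial ribosome protein, fell by 1.75 and 1.09.

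Among genes that passed, the largest falls on the log2 scale were those of Car4 and Npy, and both genes were at background at day 6. Npy, the neuropeptide Y precursor, had 5.22, 5.39 and 5.15 in the day 6 pools, against 8.07, 7.47 and 7.97 in the day 2 pools (log2 intensity), at least 4.76-fold lower (adjusted p = 0.00206, limma). It was the only fall that passed in all 22 alternative fits. Car4, a membrane-anchored carbonic anhydrase, had 4.95, 5.38 and 5.40 in the day 6 pools, against 7.56, 7.76 and 9.65 in the day 2 pools, at least 6.68-fold lower (limma, adjusted p = 0.041). Of the surface carbonic anhydrases named here, Car9 and Car12 rose and Car4 fell.

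The remaining falls were Syne3, a nuclear envelope protein (-1.68), Hsd11b1, which regenerates active glucocorticoid (-1.64), Tgm1, a transglutaminase (at least 2.34-fold lower), and Rtn4, a protein of the tubular endoplasmic reticulum (-1.23). Hsd11b1 did not pass in the paired fit (limma, adjusted p = 0.0563). Leaving out 1 array ended the calls of Gpatch4, Syne3, Hsd11b1, Tgm1, Rtn4, Mrps22 and Car4 (adjusted p up to 0.186, 0.107, 0.241, 0.175, 0.186, 0.254 and 0.163, in that order, limma). Day 2 pool 2, day 2 pool 3, day 6 pool 1 and day 6 pool 2 each ended all 7 of these calls. Day 2 pool 1 and day 6 pool 3 ended all but that of Syne3. Unfractured pool 1 ended the calls of Car4, Hsd11b1 and Mrps22, pool 2 those of Gpatch4, Hsd11b1, Rtn4 and Mrps22, and pool 3 those of Car4 and Hsd11b1.

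Inflammatory genes did not pass in the fit of all arrays. Of 43 measured cytokine, chemokine and acute phase genes none passed, 28 were lower at day 6 (54.0% of all genes were), and the median was -0.44. The median was 0.20 between the pools numbered 1, -0.54 between those numbered 2 and -0.83 between those numbered 3, and it was -0.21 without day 2 pool 2 and -0.22 without day 2 pool 3. The paired fit called 5, all lower at day 6: Cxcl5, Ccl2, Cxcl14, Il33 and Ccl9. Without the leukocyte-rich arrays 3 were called, all lower. Ccl2, a chemoattractant for monocytes, had 9.45, 10.03 and 9.62 in the day 6 pools, against 10.94, 12.35 and 12.18 in the day 2 pools (log2 intensity); its fall of 2.12 had an adjusted p of 0.0275 in the paired fit and of 0.166 in the fit of all arrays. Cxcl14 missed the threshold narrowly (-1.99 ± 0.40; adjusted p = 0.0534, limma) and fell in the paired fit. Il6 had 10.57, 10.95 and 10.79 in the day 6 pools, against 8.69, 13.29 and 11.76 in the day 2 pools, so the day 6 values lay inside the day 2 range. Cxcl9, an interferon-induced chemokine, leaned the other way (1.48 ± 0.34; limma, adjusted p = 0.0939).

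Of 25 measured matrix proteases and inhibitors none passed. In the paired fit Timp4, a metalloproteinase inhibitor, and Mmp3, stromelysin, fell by 2.52 and 1.61, and Mmp9, the gelatinase of osteoclasts and leukocytes, rose by 1.58. Mmp9 had 13.50, 9.98 and 9.63 in the day 6 pools, against 11.66, 8.28 and 8.44 in the day 2 pools, highest in the leukocyte-rich pool of each day. Neither the 19 immediate early genes nor the 22 interferon genes held a call, with medians of -0.04 and 0.15.

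Progenitor and mural genes moved one by one. Of 29 measured genes of mesenchymal progenitors and fibroblasts, Nt5e, the surface enzyme CD73, rose (2.42 ± 0.32; adjusted p = 0.00767, limma). It had 11.996, 12.60 and 12.54 in the day 6 pools, against 10.29, 10.17 and 9.43 in the day 2 pools. Gsn, gelsolin, fell in the paired fit alone (-1.74), and Pdgfra differed by -0.65 ± 0.53. Of 30 smooth muscle and pericyte genes, Cspg4, the proteoglycan NG2 that pericytes and young chondrocytes both carry, rose (2.64 ± 0.35; limma, adjusted p = 0.00846). The call of Nt5e ended without day 6 pool 2 or 3 (up to 0.0593) and that of Cspg4 also without day 2 pool 3 (up to 0.0601).

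The contractile genes depended on the pools compared. The median of the smooth muscle and pericyte list was 0.66 in pool 1 of day 6 minus pool 1 of day 2, and -0.94 and -0.95 in the other numbered pairs. Myh11, the smooth muscle myosin heavy chain, had 8.82, 9.78 and 9.44 in the day 6 pools, against 8.52, 12.92 and 12.46 in the day 2 pools. Day 2 pool 1 was low where the other day 2 pools were high. Without the leukocyte-rich arrays, Myh11 fell by 3.08 (adjusted p = 0.0124, limma) and 8 genes of the list fell in all. With all arrays no gene of the list fell, and 2, Casq2 and Des, fell in the paired fit. Pdgfrb (-0.47) and Acta2 (-0.40) did not pass in any of these 3 fits.

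**Figure D4:**
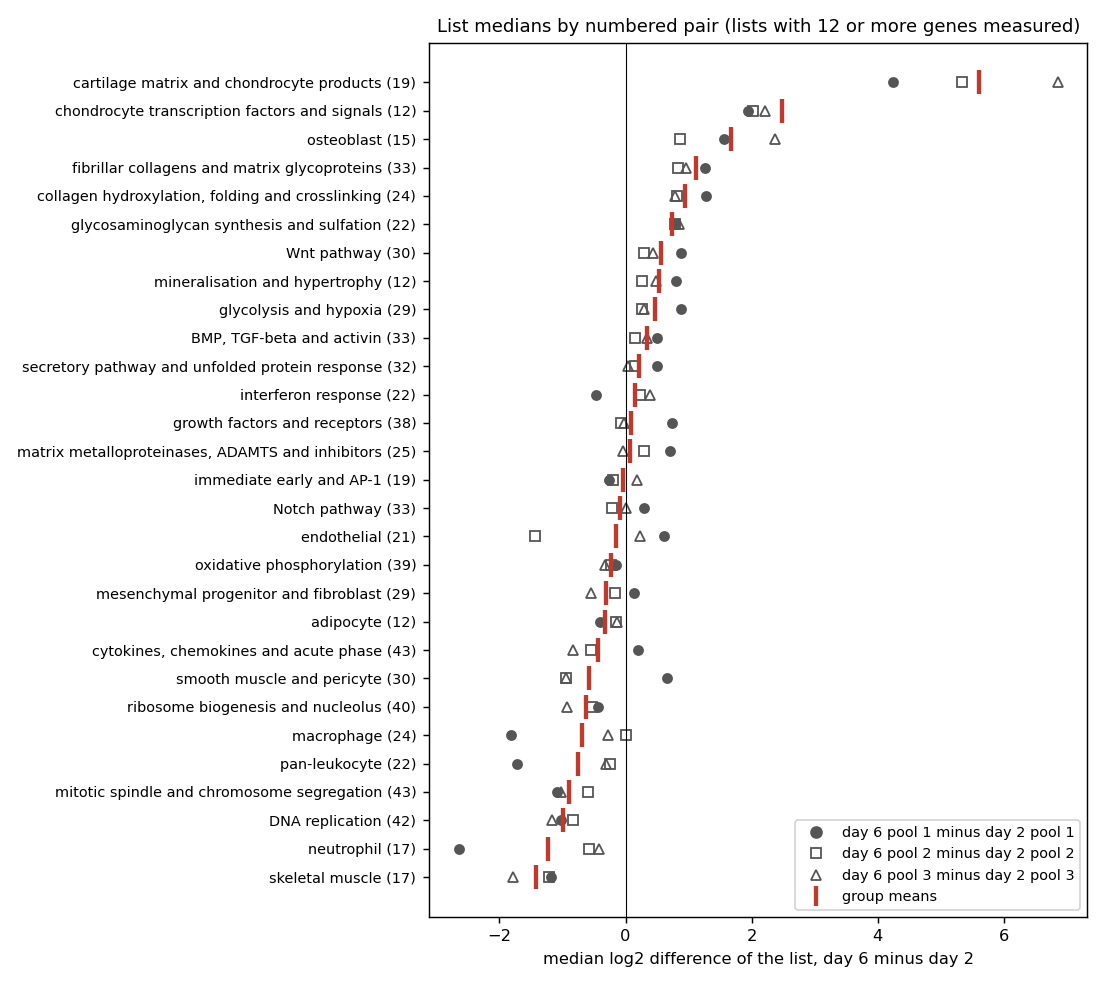
Median log2 difference between day 6 and day 2 (horizontal axis, day 6 minus day 2) for each list with 12 or more genes measured; symbols are the 3 numbered pairs of pools, and red marks are medians from the group means. Cartilage, replication and mitosis lists have the same sign in all 3 pairs, while the smooth muscle and pericyte list is at 0.66 in pair 1 and at -0.94 and -0.95 in the others.

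Markers of other cell types were detected in the sorted pools to different degrees. The 24 measured macrophage genes had a mean log2 intensity of 10.70, 7.79 and 8.22 in the day 6 pools, against 12.42, 7.98 and 8.70 in the day 2 pools, and none passed. C1qb, which encodes part of complement C1q and is typical of macrophages, had 12.09, 8.21 and 8.98 in the day 6 pools, against 13.96, 8.12 and 9.25 in the day 2 pools. Macrophage genes were thus high in pool 1 of both days, and the median difference of the list was -1.82 in pair 1, against 0.01 and -0.27 in the other pairs. Pf4 and Mrc1 of this list and Stfa2 of the neutrophil list fell in the paired fit. All 17 neutrophil genes and all 22 general leukocyte genes were lower at day 6 (medians -1.23 and -0.75), none passed, and without day 2 pool 1 both medians turned positive (0.23 and 0.47), as did that of the macrophage list (0.79).

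Skeletal muscle genes were lower in every pair by their median. Of 17 measured, 15 were lower at day 6, beside 54.0% of all genes. In 9 of them every day 6 pool was below every day 2 pool, as in 13.2% of all genes. The 17 measured genes had a mean log2 intensity of 6.19, 7.25 and 6.78 in the day 6 pools, against 7.64, 8.49 and 8.61 in the day 2 pools. None passed in the fit of all arrays, and 8 fell in the paired fit, which called 1.3% of all genes lower. On the 6 arrays without the block 2 fell, and 0 with the block over all 9 arrays. Atp2a1, the calcium pump of fast muscle, had 6.01, 8.58 and 7.84 in the day 6 pools, against 9.51, 11.63 and 11.36 in the day 2 pools, and Ckm, muscle creatine kinase, was at background at day 6. Muscle fibres lie against the periosteum, and the part of these transcripts in the other falls was not tested. The 21 endothelial genes (median -0.14), 12 adipocyte genes (-0.33), 9 osteoclast genes (0.17), 7 erythroid genes, 5 mast cell genes and 4 Schwann cell genes held no call in the fit of all arrays. The endothelial median was 0.61, -1.44 and 0.23 in pairs 1, 2 and 3. Of 3 lymphocyte genes Cd247, a T-cell receptor chain, rose by 1.31 (limma, adjusted p = 0.0475). It did not pass without unfractured pool 1 or 2, day 2 pool 2 or 3, or any 1 day 6 pool (adjusted p up to 0.241).

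**Figure D5:**
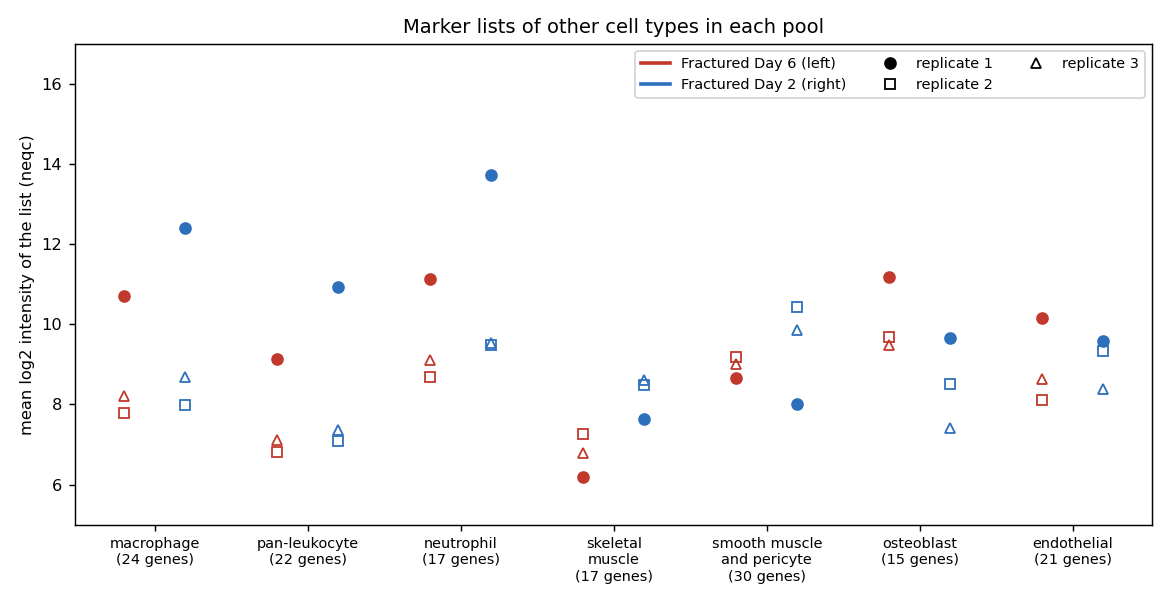
Mean log2 intensity (vertical axis) of 7 marker lists in each pool, day 6 left and day 2 right, with the replicate as the symbol. Pool 1 lies above the other pools of its day for macrophage, general leukocyte, neutrophil, osteoblast and endothelial genes. It lies below them for smooth muscle and pericyte genes. All 3 day 6 pools lie below all 3 day 2 pools for skeletal muscle genes.

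The other 4 of the 15 largest rises were genes on no list. C1qtnf3, a secreted protein with a collagen-like stretch also called cartducin, had 15.08, 15.64 and 15.73 in the day 6 pools, against 9.16, 10.43 and 10.21 in the day 2 pools (log2 intensity), a rise of 5.55 ± 0.44 (adjusted p = 0.000609, limma). Moxd1, a relative of the copper enzyme dopamine beta-hydroxylase, had 12.43, 12.91 and 12.95 in the day 6 pools, against 6.39, 8.14 and 7.74 in the day 2 pools, a rise of 5.35 ± 0.68. Ppp1r1b, a phosphatase inhibitor best known in neurons as DARPP-32, also passed. Its tested probe had 9.03, 10.66 and 11.08 in the day 6 pools, against 5.26, 4.98 and 4.68 in the day 2 pools, where that probe was not well above background, so its gap is given as at least 24.9-fold. A different probe of Ppp1r1b, detected in every pool of both days, differed by 0.02 on the log2 scale, and its remaining probe, detected in 2 day 6 pools and 1 day 2 pool, by 0.80, so its probes disagree. Fam180a rose by 5.28. The call of Fam180a ended without day 2 pool 3, day 6 pool 2 or day 6 pool 3 (adjusted p up to 0.0813), and the other 3 held in all 22 alternative fits. In all, 96 of the 132 rises lay on none of the 34 lists.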

How the data were processed

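RNA of sorted cells was measured on 9 Illumina bead arrays of 25697 probes. The deposited bead intensities, neither background-subtracted nor normalised, and the detection p-value of each probe were exported from GenomeStudio, per the submitters' processing notes and the file headers. The authors' deposited value table holds linear intensities, quantile-normalised as its values show. The intensities were corrected with neqc of limma 3.58.1 (R 4.3.3), with negative controls inferred from the detection p-values, an offset of 16, quantile normalisation and log2. The 14519 probes whose detection p fell below 0.05 on 3 or more arrays were kept, and the brightest probe of each gene on average gave 10073 genes. Genes undetected in all pools of a day are given as bounds.

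Group means were fitted to 9 arrays with limma and tested by empirical Bayes with 6 residual degrees of freedom. Same-numbered pools correlated in their deviations (r = 0.63, 0.52 and 0.51), although pools 2 and 3 also correlated across numbers (0.57 and 0.33), which does not establish the pairing. The paired fit is given where it changes a call. The code was tested on simulated data. Named genes are the 15 largest rises and falls that passed without overlap, up to 6 members of each of 34 lists by smallest p, and a panel of callus genes. Other list members were named to complete a count or after their values were seen. Members and lists were chosen with earlier results of these data known. The alternatives were other fits, normalisations, filters and probe choices, and leaving out arrays. The number of arrays limits the precision, and no slide or scan batch was used.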

Additional observations from a re-analysis of the deposited data

Results flagged for a closer look

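The medians of 2 of 34 lists moved in opposite directions between the male and female pairs. For the 143 called genes this could not occur, because their day 6 and day 2 values did not overlap. For the immediate early and AP-1 genes, the median of day 6 minus day 2 was 0.19 in the female pair, against -0.27 and -0.20 in the male pairs, so that the female pair exceeded the mean of the male pairs by 0.417. For the matrix metalloproteinases, ADAMTS proteases and inhibitors, the median was -0.04 in the female pair, against 0.71 and 0.29 in the male pairs, a gap of -0.531. With 1 female pair, the difference was not tested in either list.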

How the results depend on the processing

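The 143 calls became 438 (307 higher, 131 lower) with a replicate block on the 6 arrays, where the pairing rests on correlated deviations, and 89 (85 higher, 4 lower) with a replicate block over all 9 arrays. The 6 arrays without the block gave 216, of them 50 lower. Median scaling gave 80 (78 higher, 2 lower) and moved the median of all genes from -0.04 to -0.13. Without the leukocyte-rich arrays there were 351 (246 higher, 105 lower). The number lower was 3 with sex as a term, 4 with arrays weighted by animals pooled, 31 without background correction and 32 in the deposited value table. Leaving out 1 array gave 47 to 189 calls, 46 to 162 higher and 1 to 27 lower. No called gene named here reversed. Of 47 named genes that passed, 20 passed in all 22 alternative fits, and 60 named genes that did not pass did so in some fit. The cartilage median lay between 3.74 and 6.49, that of mitosis between -1.02 and -0.61 and that of ribosome biogenesis between -0.77 and -0.55. List medians close to 0 changed sign in some fits (immediate early, interferon, protease, Notch, growth factor, endothelial, osteoclast, erythroid, lymphocyte and mast cell genes), as did the 3 leukocyte lists without day 2 pool 1. The cause of these moves was not tested. A gene near the background in both days has only a compressed difference, and 3 pools per day limit every call.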

Other observations

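Several of the rises are imprinted genes, which are expressed from 1 parental copy and are mostly fetal. The list of imprinted genes was written after Mest, Peg3, Igf2 and Phlda2 had been seen among the rises, so its count is a description. Of 32 measured of 54 listed, 4 rose (1.31% of all genes did) and none fell. In the paired fit 9 rose (3.05% of all genes did) and none fell. The median of the 32 was 0.30 on the log2 scale, with 21 positive and 11 negative. Mest, a hydrolase-like protein of fetal mesoderm, had 13.39, 13.98 and 13.68 in the day 6 pools, against 8.38, 9.82 and 9.20 in the day 2 pools (log2 intensity), a rise of 4.55 ± 0.39 (adjusted p = 0.000634, limma). Peg3, a zinc finger protein, had 11.29, 11.25 and 11.39 in the day 6 pools, against 6.71, 7.68 and 7.64 in the day 2 pools. It rose by 3.97 ± 0.39, and neither gene overlapped between the days. Phlda2, a growth-restraining gene of the placenta, was at background at day 2 and at least 2.04-fold higher at day 6.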
